A study of Mus musculus with 6 samples.

Results

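The translation initiation and elongation factors of the mouse were taken as the 62 genes, of 28987 in the expression table, whose symbol begins with *Eif1* to *Eif6*, *Eef1* or *Eef2*. A further 4 rows with such a symbol are pseudogenes and were left out. All 62 had a value above 0 in every library, and all 62 were among the 15109 genes kept for testing, which had a mean linear value of at least 1 over the 6 libraries.

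The libraries were made from EGFP+ cells that flow cytometry sorted out of mouse ventricles. Each heart had been under pressure overload for 4 weeks since TAC (transverse aortic constriction), an operation that narrows the aorta. Mice of both groups carried a knock-in of the tamoxifen-inducible Cre recombinase MerCreMer at the *Postn* locus and a Cre-dependent eGFP reporter at Rosa26, both groups received tamoxifen by injection and in chow, and TAC was done at 8 to 10 weeks of age. The 3 libraries labelled *Hsp47*-deleted came from mice that were also *Hsp47* flox/flox (gene symbol *Serpinh1*), a gene that encodes a collagen chaperone, and the labels of the 3 control libraries list no floxed *Hsp47* allele. The comparison of the groups addressed how loss of *Hsp47* alters gene expression in activated cardiac fibroblasts. Cre and the sorting marker both depend on the *Postn* locus, so by design cells that had not switched it on should be neither recombined nor sorted. Marker transcripts of other cell types were still present and are given below.

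Translation begins when eIF2, bound to GTP, brings the initiator tRNA to the small ribosomal subunit, while eIF3 and the eIF1 group hold that subunit open for scanning and eIF4F brings in the capped mRNA. eIF2B recharges eIF2 with GTP, and kinases that phosphorylate the α subunit of eIF2 block this step under stress. The elongation factors eEF1 and eEF2 then deliver each aminoacyl-tRNA and move the ribosome along. In fibroblasts these factors serve, among all other mRNAs, the synthesis of collagen and other matrix proteins.

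The γ subunit of eIF2 shows how reads may be divided among near-identical genes in this group. In male mice it comes from *Eif2s3x* (chromosome X, 94188707 to 94212862, minus strand) and *Eif2s3y* (chromosome Y, 1010543 to 1028847, plus strand; GRCm38, GENCODE release M21). The processed pseudogene *Gm2223* (chromosome X, 33505661 to 33507010, plus strand) is identical to the coding sequence of *Eif2s3x* over all 1350 of its bases. *Eif2s3y* differs from *Eif2s3x* at 194 of 1419 coding bases (86.3% identical). Bases 70 to 129 of the *Eif2s3x* coding sequence and the matching stretch of the other genes are shown because they tell the 3 loci apart or fail to, with capitals for bases that differ from *Eif2s3x*.
Eif2s3x: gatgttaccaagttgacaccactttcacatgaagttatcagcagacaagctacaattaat
Gm2223: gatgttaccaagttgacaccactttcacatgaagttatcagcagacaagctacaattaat
Eif2s3y: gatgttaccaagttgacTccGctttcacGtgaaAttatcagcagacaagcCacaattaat
The table gave *Gm2223* between 46.5% and 58.7% of the summed linear value of *Eif2s3x* and *Gm2223* in each library, so the level of *Eif2s3x* alone is uncertain. In all, 22 near-identical copies (at least 95% identity over at least 80% of the copy) were found for 12 members. *Eif4e1b* lost 1.31% to 21.8% of the summed value to its copy and *Eif2s1* 2.01% to 10.4%, and the share was at most 2.01% in every library for the other 9 members. Within the group, *Eif3j2* matched *Eif3j1* at 99.4% of bases over its whole transcript, so the division between these paralogs is uncertain too.

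No translation factor passed the adjusted test. By limma with Benjamini-Hochberg adjustment over all 15109 genes, 0 of 62 members had an adjusted p under 0.05, where 37 genes (0.245% of all tested) did, and the smallest adjusted p of a member was 0.252, for *Eif3g*. At an unadjusted p under 0.05, 16 members were higher and 0 lower in the *Hsp47*-deleted libraries, beside 14.5% of all genes higher and 0.755% lower. The 3 *Hsp47*-deleted values lay above all 3 control values at 22 members and below them at 0, beside 18.3% and 1.5% of all genes. With 3 libraries against 3, an exact two-sided permutation test of 1 gene cannot give a p below 0.10.

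The whole table was shifted between the groups, and the members are read against that shift. The median log2 fold change was 0.51 over the members and 0.35 over all genes tested, and 50 members (80.6%) were higher and 12 lower, where 74.5% of all genes were higher. With each library centred on its median, the members' median was 0.10 beside -0.06 for all genes, and 35 of 62 were higher. After centring, 6 members (*Eif2d*, *Eif3g*, *Eif4b*, *Eif4a2*, *Eef1a1* and *Eef2*) lay above all controls, beside 6.54% of genes, and *Eif2s3y* and *Eif2ak2* lay below all controls, beside 7.24%. *Eif3g*, *Eif2b2*, *Eef1a1*, *Eif4a2* and *Eif3k* were the 5 members higher at an unadjusted p under 0.05 after centring, beside 4.73% of genes.

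Several libraries set these counts. The first run held control replicates 3 and 4, and the second held control replicate 2 and all *Hsp47*-deleted libraries, so run and group are partly confounded. The count of members higher at an unadjusted p under 0.05 went from 16 to 4 without control replicate 3, to 6 without control replicate 4, to 9 without *Hsp47*-deleted replicate 1 and to 6 without *Hsp47*-deleted replicate 3. Without control replicate 2, where run and group cannot be told apart, 22 members were higher at an unadjusted p under 0.05, 2 were lower (*Eif2s1* and *Eif4enif1*), and 14 passed the adjusted test, all higher.

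**Figure D1:**
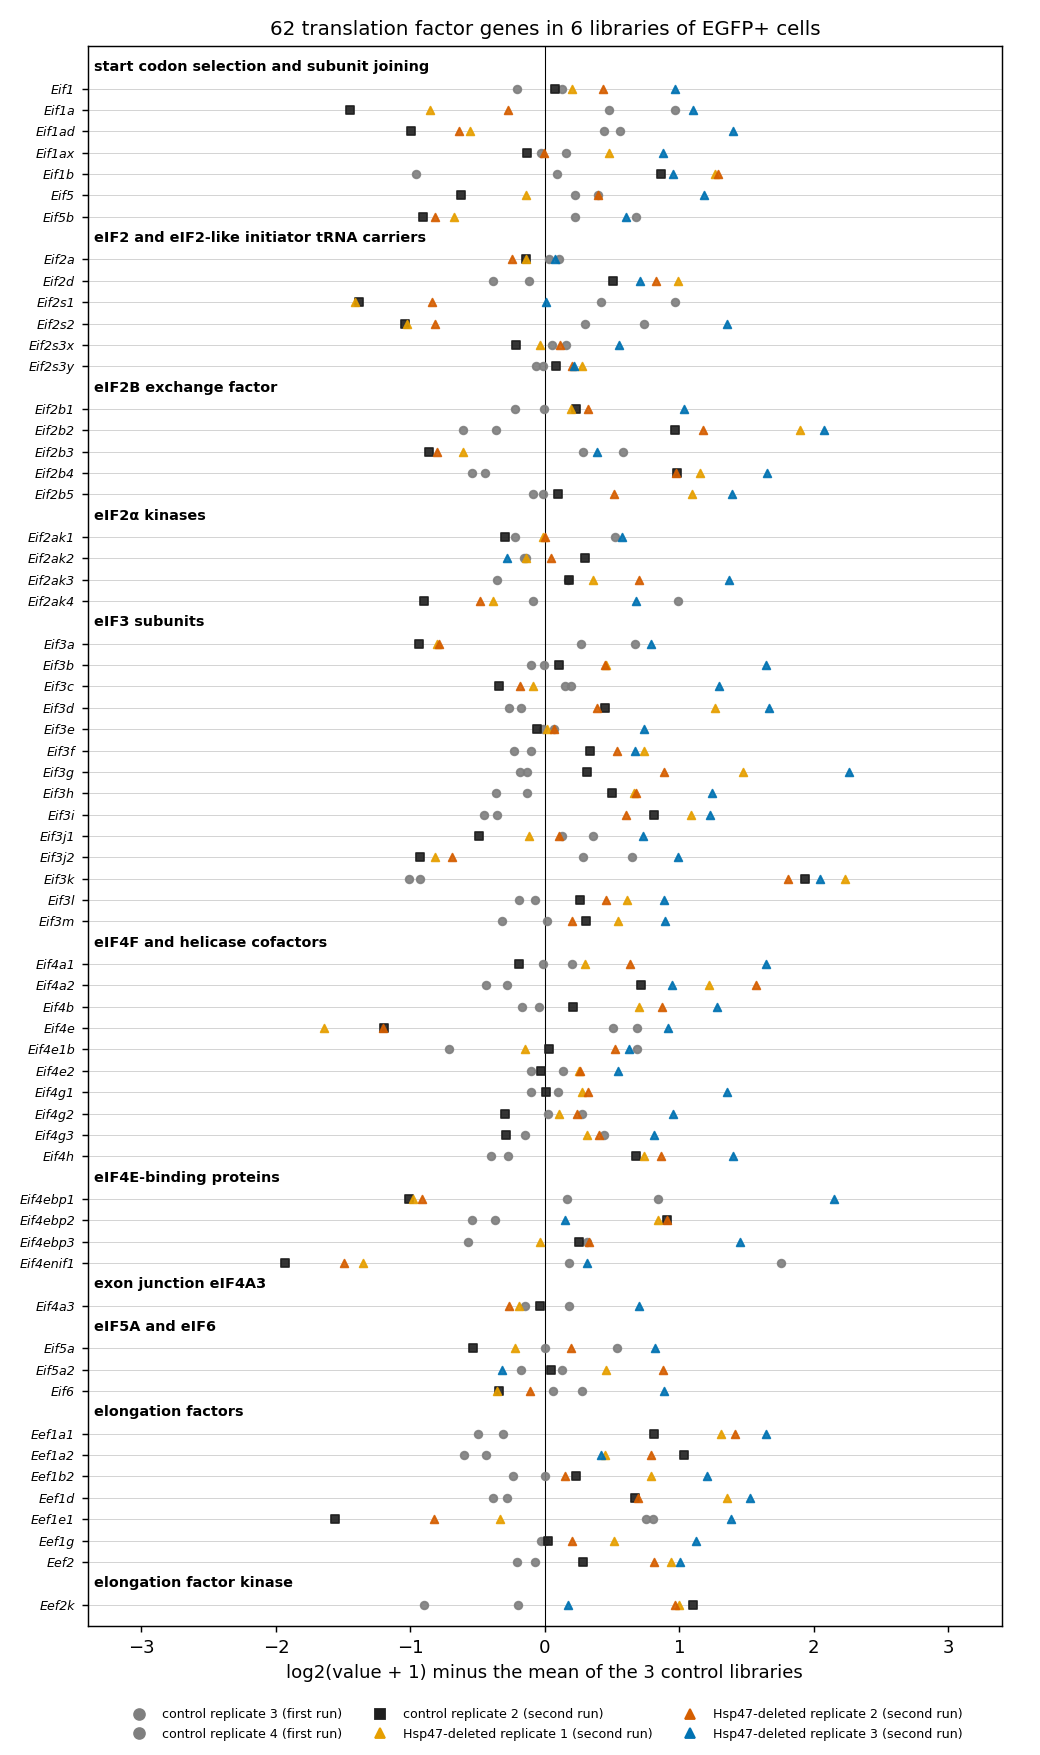
Each row is 1 of the 62 members, grouped by role, and each point is 1 library, placed by its log2(value + 1) minus the mean of the 3 controls. Circles are the controls of the first run, squares the control of the second run and triangles the Hsp47-deleted libraries. In 51 of 62 rows the triangle of Hsp47-deleted replicate 3 is the rightmost of the 3 triangles.

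The targeted gene and the cell type markers bear on how the groups may be named. The log2 values of *Serpinh1* were 7.60 for control replicate 2, 6.28 for 3 and 6.10 for 4, against 6.87, 6.67 and 6.66 for *Hsp47*-deleted replicates 1 to 3, a log2 fold change of 0.07 (SE 0.43, adjusted p = 0.947). The *Hsp47*-deleted values lay within the range of the controls and, by a mean difference of -0.87, below the control of their own run. *Hsp47*-deleted thus names the label and not a measured loss of this transcript. For the protein, the paper reports efficient deletion by Western blot in EGFP+ cells sorted from mice of this genotype. The 9 fibroblast markers summed to linear values of 7962 to 10965 in control and 12574 to 14330 in *Hsp47*-deleted libraries. Most of each sum was *Dcn*, at 5090 to 7401 and 7755 to 8636, and *Postn* added 56.9 to 68.5 and 1188 to 1451. Of the 9, 8 were higher and *Lum* lower, and 4 lay above all controls, beside 18.3% of all genes. The sums were 35.5 to 194 and 139 to 215 for 6 cardiomyocyte markers, 39.9 to 149 and 99.3 to 154 for 6 endothelial, 160 to 285 and 108 to 166 for 5 mural, 13.3 to 342 and 81.1 to 136 for 3 erythroid and 36.8 to 79.97 and 89.5 to 116 for 5 leukocyte markers, among which *Ptprc* was at 0 throughout. Outside the fibroblast list the groups did not overlap at *Myh6* and *Cd14*, above all controls, and at *Rgs5*, below them (log2 fold changes 2.01, 1.23 and -0.65), none past the adjusted test. *Postn*, whose locus carries the Cre, lay at 6.12, 5.87 and 5.86 in the controls and 10.22, 10.50 and 10.36 in the *Hsp47*-deleted libraries, and it was the only one of these markers past the adjusted test (log2 fold change 4.41, adjusted p = 0.00337). The part of cell makeup and of the *Postn* difference in the members' values was not tested, and in bulk RNA fewer cells of a type and less RNA per cell cannot be told apart.

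Among the 7 factors of start codon selection and subunit joining, 5 were higher and 2 lower, 1 of them at an unadjusted p under 0.05, and the median was 0.45 on the log2 scale. Of all genes tested, 74.5% were higher, 14.5% were higher at that p and 18.3% lay above all controls, with a median of 0.35. These shares stand beside the counts of every role. Below, controls are given in the order of replicates 2, 3 and 4 and *Hsp47*-deleted libraries in the order 1, 2 and 3, on the deposited log2 scale. *Eif1b*, a paralog of the start codon fidelity factor *Eif1*, had values of 5.06, 4.29 and 3.24 in control and 5.46, 5.48 and 5.15 in *Hsp47*-deleted libraries. These groups did not overlap (log2 fold change 1.17, SE 0.46, adjusted p = 0.313), although the gap between the highest control and the lowest *Hsp47*-deleted library was small. The difference was 0.30 against the second-run control and 0.69 without control replicate 4. *Eif1* itself went from 9.50, 9.55 and 9.21 to 9.62, 9.85 and 10.39 (log2 fold change 0.54, SE 0.33), again without overlap. *Eif5b*, the GTPase that joins the ribosomal subunits, had 4.48, 5.60 and 6.06 in control and 4.70, 4.56 and 5.99 in *Hsp47*-deleted libraries. Its log2 fold change was -0.30 (SE 0.53, adjusted p = 0.802), with a spread within each group larger than the difference. All 7 of these factors were above the second-run control in all 3 *Hsp47*-deleted libraries, a pattern that 46.7% of all genes showed.

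The 6 genes of eIF2 and eIF2-like initiator tRNA carriers were evenly divided, 3 higher and 3 lower, with a median of 0.05. *Eif2d*, which can bring tRNA to the ribosome without eIF2, had 3.05, 2.16 and 2.43 in control and 3.54, 3.37 and 3.25 in *Hsp47*-deleted libraries (log2 fold change 0.84, SE 0.34, adjusted p = 0.315). It was the only gene of this role at an unadjusted p under 0.05, and against the second-run control it was 0.33 higher. *Eif2s1*, which encodes the α subunit that stress kinases phosphorylate, had 4.34, 6.14 and 6.69 in control and 4.31, 4.88 and 5.74 in *Hsp47*-deleted libraries. Its log2 fold change of -0.75 (SE 0.64, adjusted p = 0.578) turned to 0.64 against the second-run control alone, which was the lowest of the controls. *Eif2s3x* had 4.72, 5.08 and 4.98 in control and 4.89, 5.04 and 5.48 in *Hsp47*-deleted libraries, and *Eif2s3y* had 5.00, 4.85 and 4.90 and then 5.19, 5.12 and 5.13. The log2 fold changes of this X and Y pair were 0.21 (SE 0.30) and 0.23 (SE 0.26), and both became negative after centring. With *Gm2223* added to *Eif2s3x*, the log2 fold change of the sum was 0.45. That of *Eif2s3x* alone, without *Gm2223*, was 0.04 when *Hsp47*-deleted replicate 3 was left out.

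The eIF2B exchange factor had 4 of 5 subunits higher, 3 of 5 at an unadjusted p under 0.05, and a median of 1.00. Over both runs this was the highest median among the roles with more than 1 gene, but against the second-run control it was 0.52, below that of 6 other roles. Of all genes, 14.5% were higher at an unadjusted p under 0.05. After centring, 1 of 5 subunits (*Eif2b2*) was higher at that p, beside 4.73% of genes, and 0 of 5 lay above all controls. *Eif2b2*, the β subunit, had 4.03, 2.69 and 2.45 in control and 4.95, 4.23 and 5.13 in *Hsp47*-deleted libraries (log2 fold change 1.72, SE 0.48, adjusted p = 0.274). *Eif2b5*, the catalytic ε subunit, had 2.71, 2.61 and 2.53 in control and 3.72, 3.14 and 4.01 in *Hsp47*-deleted libraries (log2 fold change 1.00, SE 0.33, adjusted p = 0.283). Its 3 controls lay close together across both runs, and it was 0.91 higher than the second-run control. *Eif2b3*, the γ subunit, stood apart with 3.53, 4.67 and 4.97 in control and 3.78, 3.59 and 4.77 in *Hsp47*-deleted libraries. Its log2 fold change was -0.34 (SE 0.49, adjusted p = 0.75) over both runs and 0.52 against the second-run control. The subunits *Eif2b1* and *Eif2b4* were higher by 0.52 and 1.26, both with overlap between the groups. Against the second-run control the differences were smaller, 0.75 for *Eif2b2*, 0.28 for *Eif2b1* and 0.28 for *Eif2b4*.

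Of the 4 kinases of eIF2α, 0 had an unadjusted p under 0.05 and the median was 0.06. *Eif2ak3*, which encodes the endoplasmic reticulum stress kinase PERK, had 3.69, 3.16 and 3.68 in control and 3.87, 4.21 and 4.88 in *Hsp47*-deleted libraries (log2 fold change 0.81, SE 0.36, adjusted p = 0.335). It was the only kinase without overlap. *Eif2ak1*, the heme-regulated kinase, had 3.59, 3.66 and 4.40 and then 3.87, 3.88 and 4.45, a log2 fold change of 0.19 (SE 0.35) that is within the spread of the controls. *Eif2ak2*, the kinase activated by double-stranded RNA, was the only kinase below the second-run control, by 0.42.

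The eIF3 complex, the scaffold of the initiation complex, had 12 of 14 genes higher, 5 at an unadjusted p under 0.05 and a median of 0.65. *Eif3g*, an RNA-binding subunit, had 5.79, 5.29 and 5.34 in control and 6.95, 6.36 and 7.74 in *Hsp47*-deleted libraries (log2 fold change 1.54, SE 0.40, adjusted p = 0.252). Its lowest *Hsp47*-deleted library lay above its highest control, it was 1.22 higher than the second-run control, and it was the only member with an unadjusted p under 0.05 in every fit tried. *Eif3k*, a peripheral subunit, had the highest log2 fold change of all members, 2.03 (SE 0.74, adjusted p = 0.301). Its values of 6.69, 3.74 and 3.82 in control and 6.99, 6.56 and 6.80 in *Hsp47*-deleted libraries separated by run, and against the second-run control the difference was 0.09. *Eif3a*, the largest core subunit, had 6.82, 8.02 and 8.42 in control and 6.95, 6.97 and 8.54 in *Hsp47*-deleted libraries, a log2 fold change of -0.26 (SE 0.57). All 14 eIF3 genes were on average above the second-run control, beside 71.8% of all genes. In all 3 *Hsp47*-deleted libraries 10 of 14 were above it, beside 46.7% of all genes. *Eif3b*, *Eif3f*, *Eif3h* and *Eif3l* also had no overlap between the groups, with log2 fold changes of 0.85, 0.65, 0.86 and 0.65, and of 0.74, 0.31, 0.36 and 0.39 against the second-run control. With *Eif3g*, 5 of 14 eIF3 genes lay above all controls, beside 18.3% of all genes. After centring only *Eif3g* did, beside 6.54% of genes, and 2 of 14 were higher at an unadjusted p under 0.05, beside 4.73%.

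Of the 10 genes of eIF4F and its helicase cofactors, 9 were higher, 3 at an unadjusted p under 0.05, and the median was 0.58. *Eif4b*, which stimulates the eIF4A helicase, had 6.12, 5.74 and 5.87 in control and 6.61, 6.78 and 7.19 in *Hsp47*-deleted libraries (log2 fold change 0.95, SE 0.29, adjusted p = 0.282). *Eif4a2*, 1 of the paralogous eIF4A helicases, had 8.57, 7.41 and 7.57 in control and 9.07, 9.42 and 8.80 in *Hsp47*-deleted libraries (log2 fold change 1.25, SE 0.39, adjusted p = 0.282), and it was 0.53 higher than the second-run control. The balance of *Eif4a2* against *Eif4a1* did not follow the groups. The log2 value of *Eif4a2* minus that of *Eif4a1* was 0.68, -0.64 and -0.70 in control and 0.70, 0.72 and -0.92 in *Hsp47*-deleted libraries, so the second-run control matched *Hsp47*-deleted replicates 1 and 2 while replicate 3 was nearer to the first-run controls. *Eif4e*, the cap-binding subunit, was the only gene of this role with a negative log2 fold change, -0.64 (SE 0.75, adjusted p = 0.693). It had 4.77, 6.46 and 6.65 in control and 4.32, 4.75 and 6.88 in *Hsp47*-deleted libraries, again with the third *Hsp47*-deleted library at the level of the first-run controls.

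The eIF4E-binding proteins hold eIF4E away from the scaffold eIF4G, and their genes gave a median of 0.33 with 3 of 4 higher and 0 at an unadjusted p under 0.05. *Eif4ebp1* had 4.36, 5.53 and 6.20 in control and 4.39, 4.45 and 7.51 in *Hsp47*-deleted libraries, so its log2 fold change of 0.09 (SE 0.87) averaged 2 libraries at the second-run control's level and 1 library above all others. *Eif4ebp2* had the opposite order, with 5.15, 3.88 and 3.70 in control and 5.08, 5.16 and 4.40 in *Hsp47*-deleted libraries (log2 fold change 0.63, SE 0.45). *Eif4ebp3* was low throughout, at 1.04, 0.21 and 1.09 in control and 0.74, 1.11 and 2.24 in *Hsp47*-deleted libraries (log2 fold change 0.58, SE 0.49). *Eif4enif1*, which encodes the eIF4E transporter, had the lowest log2 fold change of all members, -0.85 (SE 0.91, adjusted p = 0.662). It had 5.03, 7.14 and 8.72 in control and 5.61, 5.47 and 7.28 in *Hsp47*-deleted libraries, and it was 1.09 higher than the second-run control. *Eif4a3*, a helicase of the exon junction complex that shares the family name, had 6.78, 6.99 and 6.67 and then 6.62, 6.55 and 7.52 (log2 fold change 0.08, SE 0.34).

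Of the 7 genes grouped by symbol as elongation factors, all 7 were higher, 3 of them at an unadjusted p under 0.05, with a median of 0.71. *Eef1e1*, counted here by its symbol alone, had the lowest log2 fold change of the 7, 0.08 (SE 0.79). *Eef1a1* (chromosome 9, 78478449 to 78489151), the main carrier of aminoacyl-tRNA, had 11.25, 10.12 and 9.93 in control and 11.74, 11.84 and 12.08 in *Hsp47*-deleted libraries (log2 fold change 1.45, SE 0.43, adjusted p = 0.28). *Eef2* (chromosome 10, 81176631 to 81182498), which translocates the ribosome, had 8.27, 7.91 and 7.78 in control and 8.92, 8.80 and 8.99 in *Hsp47*-deleted libraries (log2 fold change 0.92, SE 0.29, adjusted p = 0.282). *Eef1d*, a subunit of the eEF1 exchange complex, had 6.57, 5.62 and 5.51 in control and 7.26, 6.59 and 7.42 in *Hsp47*-deleted libraries (log2 fold change 1.19, SE 0.39, adjusted p = 0.283). None of these 3 genes overlapped between the groups, and the differences from the second-run control were 0.64, 0.64 and 0.52, under those from all controls. *Eef1a2*, the muscle and neuron paralog of *Eef1a1*, had low values, at 1.79, 0.31 and 0.15 in control and 1.20, 1.54 and 1.17 in *Hsp47*-deleted libraries (log2 fold change 0.55, SE 0.49), and it was below the second-run control by 0.49. *Eef2k*, the kinase that inhibits eEF2, had 3.30, 1.30 and 2.00 and then 3.19, 3.16 and 2.37, with a log2 fold change of 0.71 (SE 0.54) over both runs and -0.39 against the second-run control.

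Of the 3 genes of eIF5A and eIF6, 0 had an unadjusted p under 0.05. *Eif5a*, the hypusine-bearing factor that helps the ribosome through difficult peptide bonds, had 6.97, 7.51 and 8.05 in control and 7.29, 7.70 and 8.33 in *Hsp47*-deleted libraries (log2 fold change 0.26, SE 0.40). Its paralog *Eif5a2* had 1.80, 1.58 and 1.88 and then 2.20, 2.63 and 1.43 (log2 fold change 0.34, SE 0.39), with the third *Hsp47*-deleted library the lowest of all 6. *Eif6*, which keeps the large ribosomal subunit free, was higher by 0.14.

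**Figure D2:**
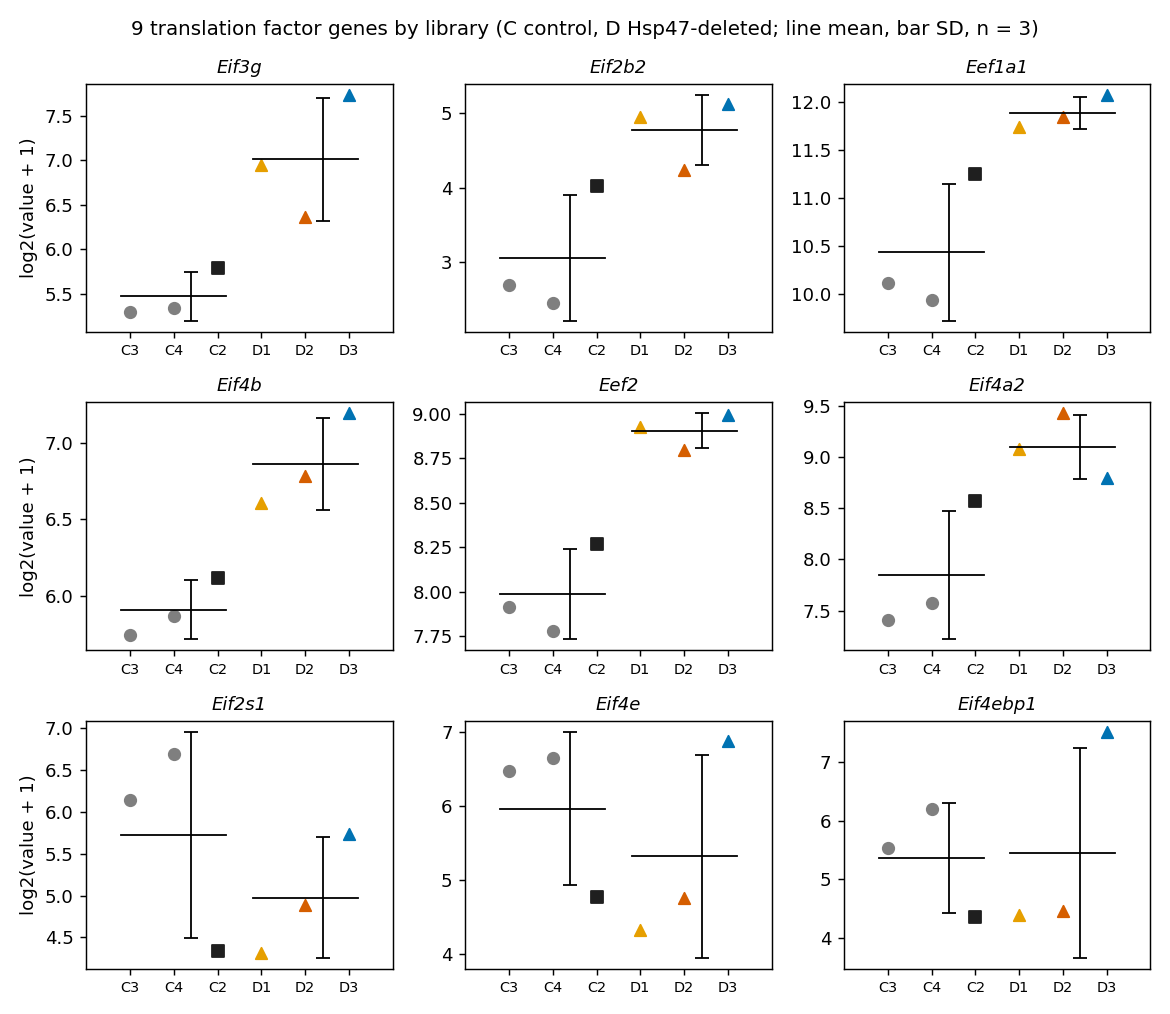
Log2(value + 1) of 9 members in each library, with the controls of the first run (C3 and C4) and of the second run (C2) and the Hsp47-deleted libraries (D1 to D3); the vertical axes differ and do not start at 0. In the upper 6 panels no control reaches the lowest Hsp47-deleted library, and in the lower 3 panels C2, D1 and D2 lie low while C3, C4 and D3 lie high.

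*Hsp47*-deleted replicate 3 stood apart from its group in this gene family. It was the highest of the 3 *Hsp47*-deleted libraries at 51 of 62 members (82.3%), where 35.9% of all genes had it highest. The median of replicate 3 minus the mean of replicates 1 and 2 was 0.67 over the members and -0.08 over all genes, and 21 of 62 members (33.9%) were at least 1 log2 unit above, beside 8.75% of genes. *Eif4ebp1* was above by 3.10, *Eif4e* by 2.34 and *Eif2s2*, the β subunit of eIF2, by 2.27. *Eif5a2*, *Eef2k* and *Eif4ebp2* were below, by -0.99, -0.81 and -0.72. Without this library the median log2 fold change of the members was 0.30, below the 0.36 of all genes, and within the second run without it the values were 0.28 and 0.30. Without control replicate 2 the medians were 0.387 and 0.385, so the excess of the members over the whole table depended on each of these 2 libraries.

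**Figure D3:**
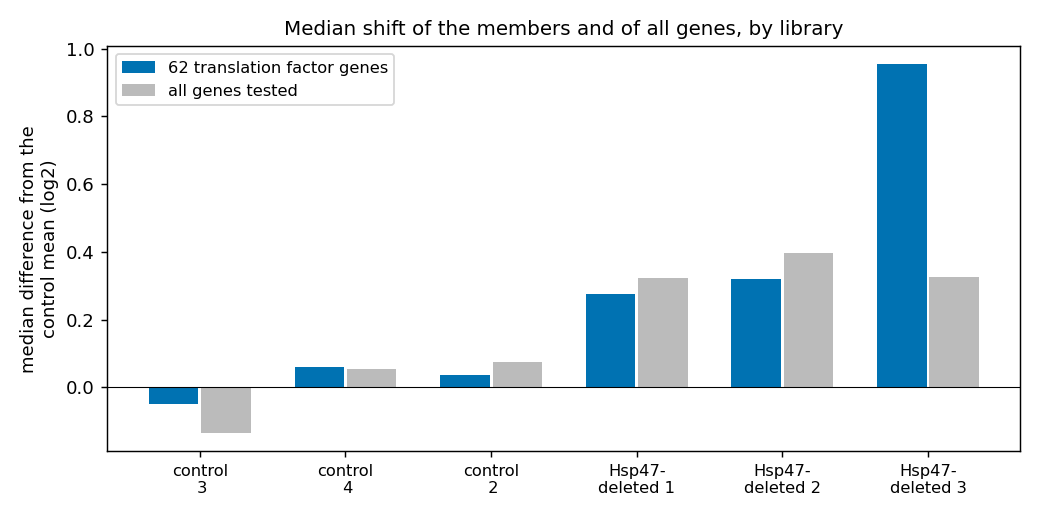
Median over the 62 members (blue) and over all genes tested (grey) of each library's log2 difference from the control mean. In Hsp47-deleted replicates 1 and 2 the members moved by 0.28 and 0.32 and all genes by 0.32 and 0.40, while in replicate 3 the members moved by 0.95 and all genes by 0.33.

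Genes of the integrated stress response, which is switched on when eIF2α is phosphorylated, also set this library apart from its group. All 14 on the list were highest in *Hsp47*-deleted replicate 3 among its group, where 35.9% of all genes were. The median difference from the mean of replicates 1 and 2 was 1.53, and the highest 5.69. *Chac1*, a glutathione-degrading enzyme of this response, had 2.37, 4.82 and 5.87 in control and 2.24, 3.31 and 8.47 in *Hsp47*-deleted libraries. The first-run controls were also high at some of these genes, such as *Asns* (6.14 and 6.57, beside 7.23 in *Hsp47*-deleted replicate 3). At others, such as *Phgdh*, they were not (3.18 and 2.54, beside 7.11). In the comparison of the groups, 12 of 14 were higher and 2 lower (*Asns* and *Psat1*), beside 74.5% of all genes higher. At an unadjusted p under 0.05, 2 were higher, beside 14.5% of all genes. The median log2 fold change was 0.68, beside 0.35. Those with the smallest p were the transcription factor genes *Ddit3* and *Atf3*. *Ddit3* had 5.49, 5.98 and 6.16 and then 6.61, 6.40 and 6.85 (log2 fold change 0.75, SE 0.31, adjusted p = 0.317). *Atf3* had 7.50, 7.05 and 7.23 and then 7.75, 7.81 and 8.51 (log2 fold change 0.76, SE 0.33, adjusted p = 0.324). In both genes all *Hsp47*-deleted libraries were above all controls. This held at 5 of the 14 genes, beside 18.3% of all genes. With each library centred on its median it held at 0 of 14, and the log2 fold changes of *Ddit3* and *Atf3* were 0.33 and 0.35.

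Other genes that act on these factors were not past the adjusted test either. Of 14 genes of mTORC1 and its inputs, the kinase pathway that frees eIF4E from its binding proteins, 14 were higher (median 0.62). At an unadjusted p under 0.05, 2 were higher. After centring, 8 of the 14 were higher. The list was not split into genes that raise and genes that lower the activity of the pathway. Of all genes, 74.5% were higher, 14.5% at an unadjusted p under 0.05 (median 0.35), which stands beside each list of this paragraph. *Rps6kb2*, an S6 kinase gene, had 2.09, 1.36 and 1.31 in control and 3.44, 2.55 and 3.25 in *Hsp47*-deleted libraries (log2 fold change 1.49, SE 0.39, adjusted p = 0.252), and *Larp1*, which represses mRNAs of the translation machinery, had 1.71, 1.72 and 2.53 and then 2.85, 2.51 and 4.08 (log2 fold change 1.16, SE 0.49, adjusted p = 0.323, and 0.69 without *Hsp47*-deleted replicate 3). Of 9 cap and poly(A) tail partners of eIF4F, 8 were higher (median 0.52), among them the eIF4E kinase gene *Mknk2* with 3.89, 1.98 and 1.48 in control and 4.37, 5.10 and 4.01 in *Hsp47*-deleted libraries (log2 fold change 2.05, SE 0.63, adjusted p = 0.282). Against the second-run control *Mknk2* was 0.61 higher. It was the only one of the 9 at an unadjusted p under 0.05. *Paip2b*, a poly(A)-binding protein inhibitor gene, followed with 2.90, 2.33 and 2.53 and then 3.01, 3.18 and 3.73 (log2 fold change 0.72, SE 0.34, and 0.41 against the second-run control). Of 9 genes of reinitiation, recycling and termination, 6 were higher and 0 had an unadjusted p under 0.05 (median 0.24). *Hbs1l*, a ribosome rescue factor gene, had 3.64, 4.06 and 4.38 and then 4.27, 4.49 and 5.36 (log2 fold change 0.67, SE 0.39, and 0.35 without *Hsp47*-deleted replicate 3). The reinitiation factor gene *Mcts1* had 4.10, 4.17 and 5.25 and then 4.19, 3.56 and 3.83 (log2 fold change -0.65, SE 0.39, and -0.28 without control replicate 4). Of 6 hypusine and diphthamide enzymes, which modify eIF5A and eEF2, 5 were higher and 0 had an unadjusted p under 0.05 (median 0.46). *Dohh*, which completes hypusine, had 2.85, 2.81 and 2.95 and then 3.45, 2.97 and 3.68 (log2 fold change 0.50, SE 0.31), and *Dph1*, of the diphthamide pathway, had 1.69, 1.15 and 1.73 and then 1.75, 1.94 and 2.59 (log2 fold change 0.57, SE 0.37, and 0.32 without *Hsp47*-deleted replicate 3). Of 10 mitochondrial translation factors, all 10 were higher and 3 had an unadjusted p under 0.05 (median 0.50). Against the second-run control 6 of the 10 were higher, beside 71.8% of all genes. After centring, 8 of the 10 were higher, 0 of them at an unadjusted p under 0.05. The elongation factor genes *Tsfm* and *Gfm1* had the smallest p. *Tsfm* had 3.44, 3.21 and 3.79 and then 4.27, 4.71 and 4.41 (log2 fold change 0.98, SE 0.30), and *Gfm1* had 3.46, 2.78 and 3.07 and then 4.22, 3.68 and 4.01 (log2 fold change 0.87, SE 0.32, and 0.51 against the second-run control). Of these 10, 1 was highest in *Hsp47*-deleted replicate 3 among its group, and the difference from the cytosolic factors was not tested.

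The 62 genes took a larger share of each *Hsp47*-deleted library than of any control. They made up 0.867%, 0.871% and 0.865% of the summed linear values of the controls and 1.16%, 1.20% and 1.67% of the *Hsp47*-deleted libraries. *Eef1a1* alone was 34.6%, 18.5% and 14.9% of the members' sum in control and 36.8%, 37.8% and 30.2% in *Hsp47*-deleted libraries. Without *Eef1a1* the shares overlapped, at 0.567%, 0.710% and 0.737% in control and 0.735%, 0.748% and 1.17% in *Hsp47*-deleted libraries. Transcripts of the mitochondrial genome moved with the group, at 28.0%, 29.4% and 23.5% of the summed values in control and 7.17%, 7.23% and 4.70% in *Hsp47*-deleted libraries. As a share of protein-coding genes outside the mitochondrial genome, the members made up 1.53%, 1.43% and 1.34% in control and 1.62%, 1.66% and 2.15% in *Hsp47*-deleted libraries, a narrower gap. The linear unit is not named, so these are shares of the deposited values and not of molecules.

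**Figure D4:**
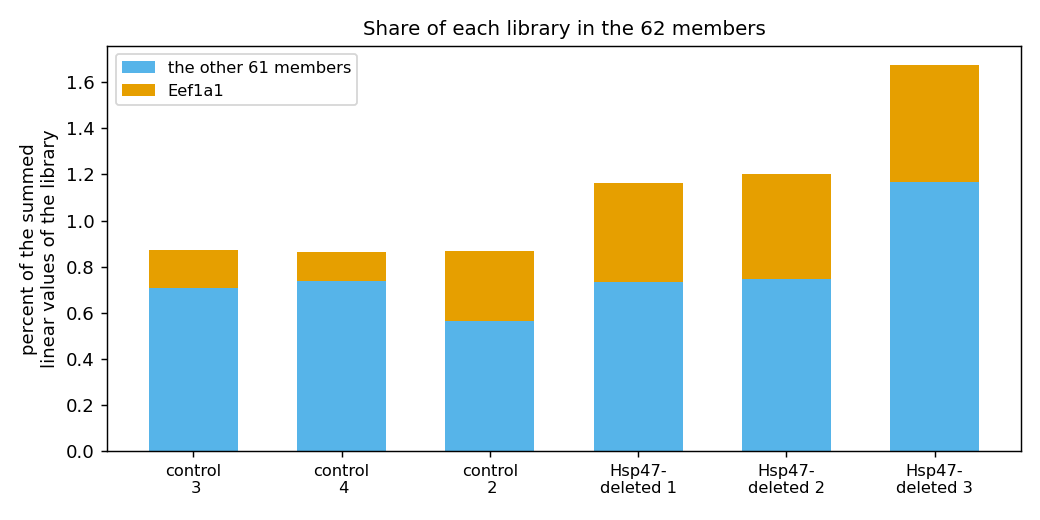
Share of each library's summed linear values held by Eef1a1 (orange) and by the other 61 members (blue), as stacked bars from 0. The total is near 0.87% in the 3 controls and between 1.16% and 1.67% in the Hsp47-deleted libraries, and the blue parts overlap between the groups.

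The controls of the 2 runs also differed at many of these genes. In control replicate 2, 12 members (19.4%) were at least 1 log2 unit higher and 13 (20.97%) at least 1 lower than the mean of control replicates 3 and 4, beside 21.7% and 13.9% of all genes. *Eif3k* was higher by 2.90 and *Eef2k* by 1.65, and *Eif4enif1*, *Eef1e1* and *Eif1a* differed by -2.90, -2.34 and -2.17. The 13 lower members had a median transcript GC content of 44.1% and the 12 higher members of 52.4%. Across the 62 members this run difference had r = 0.42 with GC content, and across 14783 genes r = 0.29. With the log2 length of the longest transcript it had r = -0.31 and r = -0.12. Genes are not independent replicates, and all points share the same 3 libraries. The log2 fold change over both runs had r = 0.45 with GC content over the members, and the difference from the second-run control had r = -0.13. With log2 length these were r = -0.39 and r = 0.0072. Against the second-run control alone, 58 of 62 members (93.5%) were on average higher, beside 71.8% of all genes (median 0.54, beside 0.29), and 43 were higher in all 3 *Hsp47*-deleted libraries, beside 46.7% of genes. *Eif2ak2*, *Eif4ebp2*, *Eef1a2* and *Eef2k* were the 4 below it on average, and 11.7% of all genes were below it in all 3 *Hsp47*-deleted libraries.

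**Figure D5:**
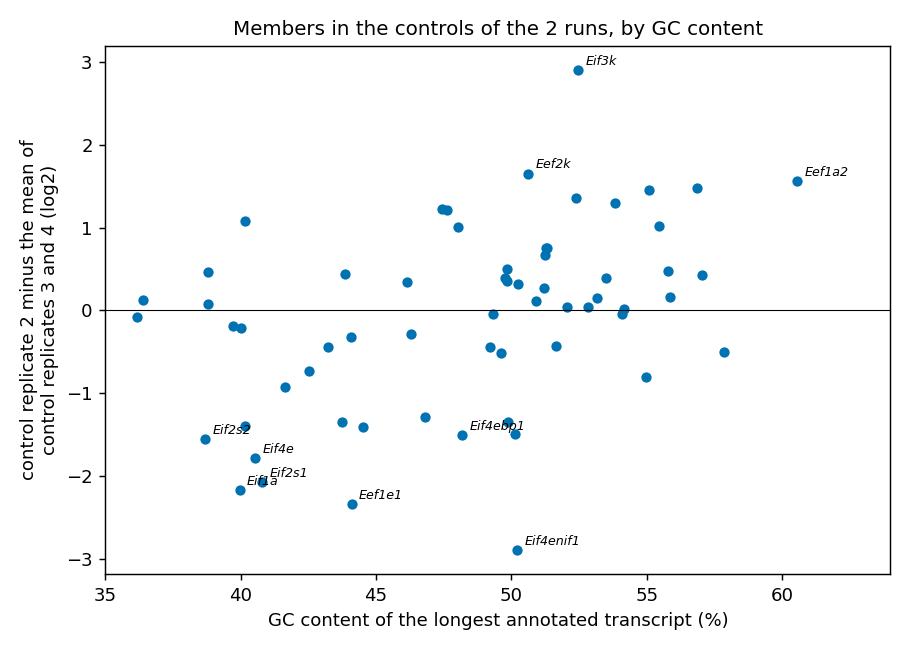
Each point is 1 of the 62 members, placed by the GC content of its longest annotated transcript (percent) and by the log2 value of control replicate 2 minus the mean of control replicates 3 and 4. Members that differ by at least 1.5 log2 units are named. The 13 members at or below -1 have a median GC content of 44.1% and the 12 at or above 1 of 52.4%.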

How the data were processed

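RNA of sorted cells was amplified with the Ovation system, made into libraries with Nextera XT and sequenced on a HiSeq2500, per the labels. The authors deposited log2(value + 1) per gene and library. The submitters' processing notes name kallisto and mm10, and the paper names AltAnalyze. The linear unit is not given in the sources used here. Linear values hold fractions and sum to 690499 to 855404 per library, so they are not counts, the depth is unknown and no counting interval is given. The authors' mean and comparison columns (folds and p-values) were not used.

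Groups and sequencing runs were taken from the labels, which do not say outright that each library is a separate mouse, so p-values measure the spread between these samples. The test was limma (version 3.58.1, R 4.3.3, trended eBayes, no covariate), *Hsp47*-deleted minus control, with Benjamini-Hochberg adjustment over 15109 genes. The procedure was tested on simulated data with independent genes, no run difference and no shift of the whole table, so that trial covers none of these. The pseudocount of 1 in the deposited values makes folds of low genes too small. The values are not known to be per length, so differences and shares between genes are of the deposited values and not of molecules. The members and lists were chosen with earlier results of these data known. Full values were given for the 6 higher and 6 lower members with the smallest p, those without overlap that differed by at least 1, the 2 with the smallest p in each role and other list, and paralog sets. Other members were named for their role or after their values were seen. Transcripts, positions and GC content came from GENCODE M21, and copies were found with minimap2 2.31-r1302. Alternatives changed the run term, replicate block, filter, pseudocount, scaling, trend, copies and libraries.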

Additional observations from a re-analysis of the deposited data

How the results depend on the processing

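With 3 libraries a group, no depth known, and run partly confounded with group, differences under the spread of the controls were not resolved. The cause of the changes below was not tested, except that leaving out libraries leaves fewer samples.

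The count of members at an adjusted p under 0.05 ranged from 0 to 14 when 1 library at a time was left out, and was 0 under every other setting. Members higher at an unadjusted p under 0.05 numbered 4 to 22 with 1 library left out, 1 with sequencing run as a covariate, 5 with median centring and 3 with quantile normalization, and members lower 0 to 2 with 1 library left out. Members without overlap numbered 8 with median centring and 7 with quantile normalization, and the members' median was 0.0961 and 0.0495. Other filters, pseudocounts, summing of near-identical copies and a fit without trend kept each of these on its side.

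Replicate numbers 2 and 3 occur in both groups, but 2 shared numbers do not show pairing (the same-numbered libraries' deviations had r = 0.16 and 0.23, and control replicate 2 had 0.38 with *Hsp47*-deleted replicate 1). With the replicate block, 4 members were higher at an unadjusted p under 0.05 and the median was 0.64. Under the block the log2 fold changes were 0.083 for *Eif2b3*, 0.068 for *Eif2s1*, 0.34 for *Eif3a*, 0.20 for *Eif4e*, 0.29 for *Eif4enif1*, 0.24 for *Eif5b* and -0.28 for *Serpinh1*, each turned in sign.

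With the run as a covariate, as in the second run alone, signs also turned for *Eef1a2* (-0.49), *Eef2k* (-0.39), *Eif2b3* (0.52), *Eif2s1* (0.64), *Eif3a* (0.67), *Eif4e* (0.55), *Eif4ebp2* (-0.27), *Eif4enif1* (1.09), *Eif5b* (0.61) and *Serpinh1* (-0.87). With median centring and quantile normalization they turned for *Eif2ak1* (-0.23 and -0.20), *Eif2s3x* (-0.21 and -0.14), *Eif2s3y* (-0.19 and -0.12), *Eif4a3* (-0.33 and -0.31), *Eif4ebp1* (-0.33 and -0.32), *Eif5a* (-0.15 and -0.30), *Eif5a2* (-0.079 and -0.093) and *Serpinh1* (-0.34 and -0.27). With 1 library left out, the range crossed 0 for *Eif2ak1* (-0.0078 to 0.45), *Eif3a* (-0.79 to 0.069), *Eif4a3* (-0.23 to 0.26), *Eif4ebp1* (-0.95 to 0.62), *Eif4enif1* (-1.81 to 0.032), *Eif5a* (-0.016 to 0.53), *Eif5b* (-0.75 to 0.045) and *Serpinh1* (-0.21 to 0.54). *Eif3g* ranged from 1.18 to 1.87. In the second run alone *Eif5a* was at 0.80 and *Eif2ak1* at 0.48.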
